A study of Mus musculus with 4 samples.

Results

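The 9 genes that encode mRNA-binding regulators of translation in germ cells, *Dazl*, *Cpeb1*, *Pabpc1*, *Elavl1*, *Fmr1*, *Fxr1*, *Ybx1*, *Ybx2* and *Celf1*, were followed in ribosome profiling of early meiotic mouse spermatocytes. They were picked from the table by gene symbol, and 9 of 9 were found in a table of 11598 genes. Ribosome-protected fragments (RPFs), the stretches of mRNA that a ribosome shields from nuclease, were sequenced from spermatocytes in leptotene and zygotene, which FACS had isolated from testes at 12 days postpartum (dpp). The control group had 2 libraries, which the labels call wild type, and the paper describes the controls as littermates. The *Eef1g*-cKO group had 2 libraries, and both groups are described as independent biological replicates. In *Eef1g*-cKO mice, *Stra8*-GFPCre deletes exons of a floxed *Eef1g*, a subunit gene of the eEF1B translation elongation complex, in male germ cells from early differentiating spermatogonia onward, so somatic cells keep the gene. The labels name no treatment for either group.

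In meiotic germ cells many mRNAs are made before they are translated, and proteins bound to the mRNA decide when ribosomes load. DAZL and CPEB1 bind sequence elements in the 3′ end of target mRNAs, PABPC1 coats the poly(A) tail and joins it to the initiation machinery, and ELAVL1 (HuR) binds AU-rich elements and protects mRNAs from decay. FMRP, the product of *Fmr1*, and its paralog FXR1 bind mRNAs on polysomes, YBX1 and its germ-cell relative YBX2 (MSY2) package mRNAs into stored particles, and CELF1 binds GU-rich elements and recruits deadenylases. Loss of *Dazl*, *Ybx2*, *Celf1* or *Elavl1* is known to disturb spermatogenesis in mice.

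RPFs of these regulators were higher in *Eef1g*-cKO for part of the group, and no member was lower. *Fmr1* rose 3.00-fold, *Pabpc1* 2.63-fold and *Dazl* 1.99-fold, the fold changes being on the scale of FPKM + 1. *Cpeb1* (2.13-fold) and *Elavl1* (2.07-fold) changed no less than *Dazl* but missed the adjusted threshold in the main fit. Which of these genes pass depends on the fit, with 0 to 5 called over the alternatives that kept all 4 libraries. *Fxr1*, *Ybx1*, *Ybx2* and *Celf1* had changes of at most 1.28-fold whose 95% intervals included no change. FPKM here is a read count divided by the gene length in kilobases and by the library's total in units of 1000000 reads. An RPF level depends on the amount of mRNA and on the ribosomes per mRNA, and in these bulk libraries fewer cells of a type and less RNA per cell cannot be told apart.

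The 4 libraries differed in depth. Control libraries held 2479504 and 1384282 reads on genes and *Eef1g*-cKO libraries 223906 and 407979, which is 6.11 times fewer on average, and the intervals given for single libraries below (exact Poisson, 95%) cover counting error only. *Eef1g* itself had 27.6 and 26.8 FPKM in control and 0 and 6.26 FPKM in *Eef1g*-cKO, from 107, 58, 0 and 4 reads, and the 0 reads allow up to 3 reads. All 10 leptotene/zygotene markers, which include *Sycp1* and *Dmc1*, were in the table, with a summed level of 1630 and 1271 FPKM in control and 3795 and 3332 FPKM in *Eef1g*-cKO, and 4 rose by adjusted p. Spermatogonial and preleptotene markers went the other way, from 1778 and 2040 FPKM in control to 408 and 361 FPKM in *Eef1g*-cKO, and 7 of 10 fell, among them *Uchl1*, *Kit* and *Stra8*. RPF levels of the stage markers therefore moved with genotype, together with the depth, and their part in the results below was not tested. The paper singles out *Sycp3*, *Dmc1*, *Meiob*, *Hormad1* and *Rad51ap2* as increased in these same libraries, so they are not an independent measure of stage. By staining of the sorted cells, it reports no significant difference between genotypes in the share of leptotene/zygotene cells. Of 8 Sertoli markers 7 were in the table, at 794 and 308 FPKM in control and 420 and 343 FPKM in *Eef1g*-cKO, with *Gata4* at 0 reads in both *Eef1g*-cKO libraries. Those sums rest on *Clu* and *Ctsl*; gene by gene, 5 of the 7 were lower in both *Eef1g*-cKO libraries than in both control libraries and 0 higher, with a median log2 fold change of -1.43, 0 decreases by adjusted p and 2 by unadjusted p and fold. Of 11 pachytene and spermatid markers 5 were in the table, with a median log2 fold change of -1.46. Their summed level went the other way, from 419 and 364 FPKM in control to 1483 and 1393 FPKM in *Eef1g*-cKO. For 2 of the 5 each *Eef1g*-cKO library exceeded each control library, and for 1 the reverse held. *Hist1h1t* rose by adjusted p, *Piwil1* was lower by unadjusted p and fold only, and *Prm2* had 0 reads in 3 libraries. Of 5 Leydig markers 3 and of 4 peritubular markers 2 were in the table, with summed levels between 1.22 and 34.1 FPKM, and no macrophage or erythroid marker was. Both peritubular markers were lower in each *Eef1g*-cKO library than in each control library (median log2 fold change -1.37), and neither passed either rule.

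Coding starts are shown for the fragile X pair, whose values moved unequally, for *Ybx2*, whose values overlapped between groups, and for *Dazl*, the member with the most RPFs. Each line gives the first 90 coding bases, 5′ to 3′, from GENCODE M21 transcripts on GRCm38, and capitals mark G or C at the last position of a codon. *Fmr1* (chrX:68678536-68717963, plus strand) and *Fxr1* (chr3:34020058-34069980, plus strand) are paralogs, and 74 of these 90 bases (82.2%) are identical. *Ybx2* lies at chr11:69935805-69941604 on the plus strand and *Dazl* at chr17:50279393-50293620 on the minus strand. Gene spans are those of RefSeq on GRCm38.p6.
Fmr1: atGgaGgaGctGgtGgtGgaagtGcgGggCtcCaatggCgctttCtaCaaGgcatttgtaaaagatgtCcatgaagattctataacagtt
Fxr1: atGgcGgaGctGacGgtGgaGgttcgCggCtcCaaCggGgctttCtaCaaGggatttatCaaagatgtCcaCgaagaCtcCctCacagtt
Ybx2: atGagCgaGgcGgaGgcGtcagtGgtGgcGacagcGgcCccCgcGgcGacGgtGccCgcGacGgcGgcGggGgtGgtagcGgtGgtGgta
Dazl: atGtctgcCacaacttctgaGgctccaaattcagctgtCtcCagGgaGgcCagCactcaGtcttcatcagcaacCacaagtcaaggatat
Among the first 30 codons, 15 of *Fmr1*, 21 of *Fxr1*, 26 of *Ybx2* and 11 of *Dazl* end in G or C. Over the whole coding sequence the order was different. G or C stood at the last position in 33.2% of codons of *Fxr1*, 34.9% of *Fmr1* and 37.2% of *Dazl*, and in 64.6% of *Ybx2*, beside a median of 60.2% over the tested genes.

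Of the 10475 genes whose mean reached 1 FPKM, all 9 members among them, 2.94% increased and 5.02% decreased in *Eef1g*-cKO by a limma adjusted p under 0.05. By that rule 3 of 9 members increased, *Fmr1*, *Pabpc1* and *Dazl*, and 0 decreased. The 3 calls are near the threshold, and without either control library the count was 0, without *Eef1g*-cKO replicate 1 it was 2 and without *Eef1g*-cKO replicate 2 it was 1. With the second rule, a log2 fold change beyond 1 at an unadjusted p under 0.05, 7.32% of tested genes increased and 16.3% decreased, and 4 members increased (*Fmr1*, *Pabpc1*, *Cpeb1* and *Elavl1*) and 0 decreased. By limma, 5 members had an unadjusted p under 0.05, all with higher values in *Eef1g*-cKO, the fifth being *Dazl*, just under the fold limit. For 7 members each *Eef1g*-cKO library exceeded each control library, a pattern seen in 24.6% of tested genes. The opposite pattern was seen for 0 members and in 37.7% of tested genes. The fitted change was positive for all 9 members, with a median log2 fold change of 0.99 beside -0.23 over all tested genes. Centring each library on its median moved the changes of all genes up by 0.21 and left the sign of each member as it was. On the reads themselves, edgeR's quasi-likelihood test and DESeq2 each called 5 members increased, adding *Cpeb1* and *Elavl1*, where they called 11.9% and 6.76% of their tested genes increased.

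**Figure D1:**
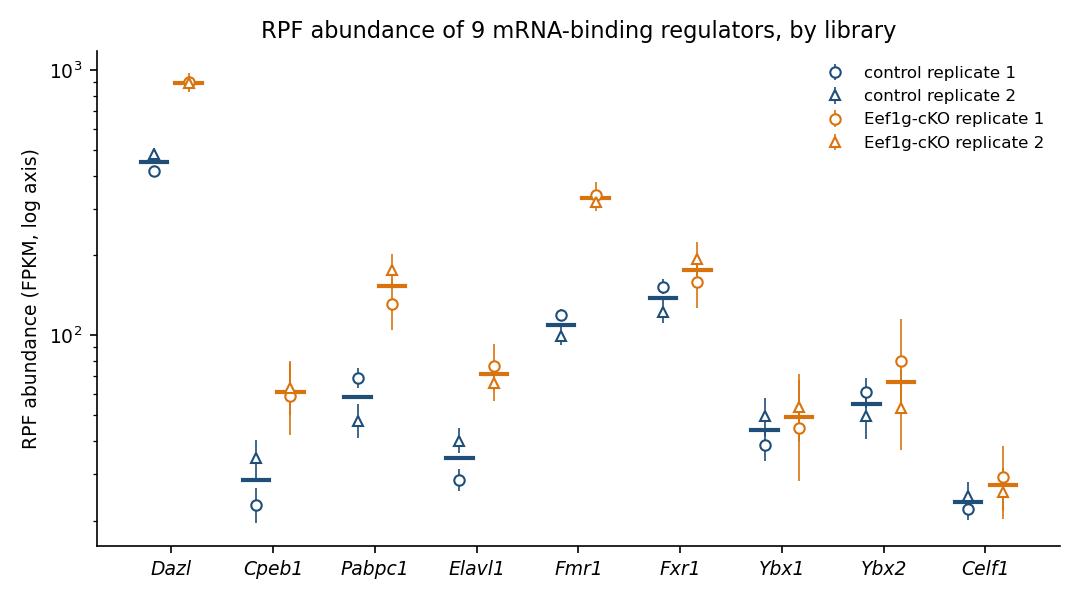
RPF abundance in FPKM (log axis) of the 9 regulators in each library, with circles for replicate 1, triangles for replicate 2, horizontal bars for group means and vertical lines for exact Poisson 95% intervals of the reads. *Eef1g*-cKO lay above control without overlap for 7 genes, and the libraries overlapped for *Ybx1* and *Ybx2*.

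*Dazl* and *Cpeb1* encode germ-cell regulators that bind defined elements in target mRNAs. *Dazl* had 417 and 485 FPKM in the control libraries and 898 and 893 FPKM in the *Eef1g*-cKO libraries. The *Eef1g*-cKO libraries were both higher than either control library and nearly equal to each other, and with 596 to 3061 reads *Dazl* was the best-covered member in every library. Its log2 fold change was 0.99 (standard error 0.21, 95% interval 0.46 to 1.52, limma adjusted p = 0.0497), which lies at the edge of the threshold. *Dazl* was among the genes that the study singled out on these same libraries, so its call is not independent evidence. A setting chosen after seeing the data removed the trend of level on coding GC content within each library. There the log2 fold change of *Dazl* was 0.55 (limma adjusted p = 0.149). Over the alternatives that kept all 4 libraries, its limma adjusted p ran from 0.0333 to 0.149. On reads, its adjusted p was 0.00116 by edgeR's quasi-likelihood test and 2.64e-05 by DESeq2.

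*Cpeb1* (chr7:81347026-81458001), whose product controls poly(A) tail length in the cytoplasm, was far less abundant. It had 22.8 and 34.3 FPKM in control and 58.8 and 63.0 FPKM in *Eef1g*-cKO, with 41 and 80 reads in the latter. The groups did not overlap, but the control libraries differed from each other by more than the *Eef1g*-cKO libraries did. The difference, 1.09 on the log2 scale (standard error 0.28, 95% interval 0.41 to 1.77), did not pass in limma (adjusted p = 0.0641) and passed in edgeR's quasi-likelihood test (adjusted p = 0.00308) and DESeq2 (adjusted p = 0.0192).

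The ratio of these genes within a library overlapped between the groups. *Dazl* over *Cpeb1* was 18.3 and 14.1 in control libraries, against 15.3 and 14.2 in *Eef1g*-cKO libraries. The change in log2 ratio was -0.10 (exact permutation test, two-sided, p = 1.00). With 2 libraries in each group that test cannot go below 0.333.

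*Pabpc1* and *Elavl1* encode general mRNA-binding regulators found in most cells. *Pabpc1* (chr15:36595658-36609581) had 69.1 and 47.6 FPKM in control and 131 and 176 FPKM in *Eef1g*-cKO, from at least 83 reads in every library. The lower *Eef1g*-cKO library was still well above the higher control library. The log2 fold change was 1.39 (standard error 0.28, 95% interval 0.71 to 2.07, limma adjusted p = 0.0437). Its reads are not all certain in origin, since 53.3% of the 28-base windows of its coding sequence also occur elsewhere in the genome, at 8 loci, and how such reads were counted is not given in the sources used here.

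*Elavl1* (chr8:4284781-4325140) had 28.6 and 40.0 FPKM in control and 76.3 and 66.3 FPKM in *Eef1g*-cKO. The groups were separate, with 103 and 163 reads in *Eef1g*-cKO. The difference, 1.05 on the log2 scale (standard error 0.26, 95% interval 0.41 to 1.69), did not pass in limma (adjusted p = 0.0617) and passed in edgeR's quasi-likelihood test (adjusted p = 0.00144) and DESeq2 (adjusted p = 0.00269). The gene overlaps *Ccl25* on the opposite strand, and whether counting used strand is not given.

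*Fmr1* and *Fxr1*, members of the fragile X family, differed the most among the related pairs. *Fmr1* had 119 and 99.7 FPKM in control and 338 and 319 FPKM in *Eef1g*-cKO, and the spread within each group was small beside the distance between them. Its log2 fold change of 1.58 (standard error 0.20, 95% interval 1.09 to 2.08, limma adjusted p = 0.0283) was the highest of the 9 in this fit and exceeded that of 97.0% of tested genes. *Pabpc1* came first without *Eef1g*-cKO replicate 1 (1.604 against 1.542 for *Fmr1*) and with the coding GC trend removed (1.22 against 1.12). *Fxr1* had 153 and 123 FPKM in control and 159 and 194 FPKM in *Eef1g*-cKO, so that the higher control library and the lower *Eef1g*-cKO library nearly met. Its log2 fold change was 0.36 (standard error 0.22, 95% interval -0.19 to 0.91, limma adjusted p = 0.320). *Fxr1* overlaps *Dnajc19* on the opposite strand, and 5.79% of its coding windows occur elsewhere, against 0.322% for *Fmr1*.

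Within each library, *Fxr1* over *Fmr1* was 1.28 and 1.23 in control libraries, against 0.471 and 0.608 in *Eef1g*-cKO libraries. All *Eef1g*-cKO ratios were lower than all control ratios, with a change in log2 ratio of -1.22 (exact permutation test, two-sided, p = 0.333, the smallest that 2 libraries against 2 allow). The side of 1 on which the control ratios lie depends on the deposited gene lengths, since per kilobase of coding sequence *Fxr1* was below *Fmr1* in all 4 libraries (175 against 277 and 140.5 against 232 reads per 1000000 in control), while the change between groups does not. *Fxr2*, which encodes the remaining paralog, had 50.2 and 65.9 FPKM in control and 87.2 and 92.4 FPKM in *Eef1g*-cKO (log2 fold change 0.63, limma adjusted p = 0.131, not passed). The FMRP partner gene *Cyfip1* had 11.8 and 16.7 FPKM in control and 3.35 and 8.45 FPKM in *Eef1g*-cKO. With 5 and 23 reads in *Eef1g*-cKO, it met the rule of unadjusted p and fold but not the adjusted one (limma adjusted p = 0.161).

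**Figure D2:**
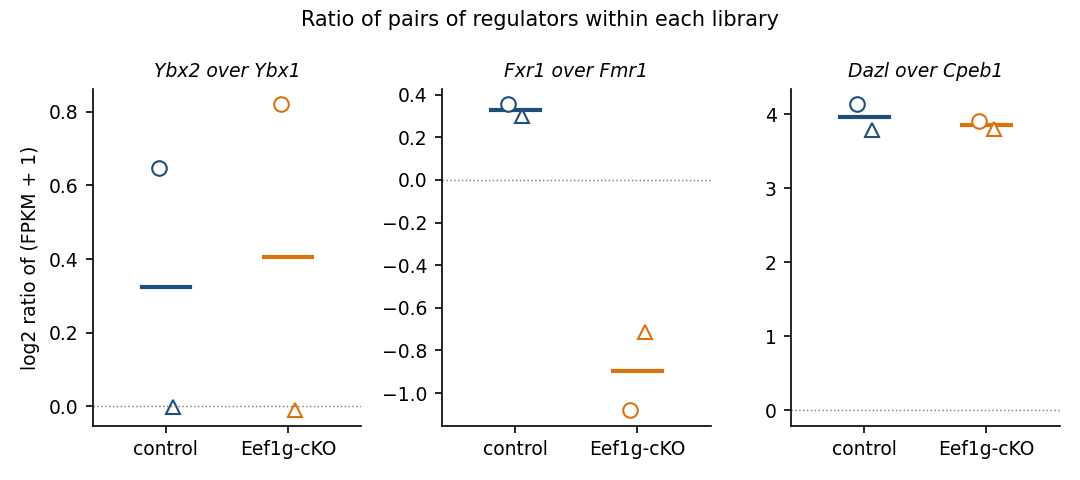
Log2 ratio of FPKM + 1 between pairs of regulators within each library (circles replicate 1, triangles replicate 2, bars group means; each panel has its own vertical scale). *Fxr1* over *Fmr1* was above 0 in both control libraries and below 0 in both *Eef1g*-cKO libraries on the deposited gene lengths (below 0 in all 4 libraries on coding lengths), while the groups overlapped for *Ybx2* over *Ybx1* and for *Dazl* over *Cpeb1*.

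*Ybx1* (chr4:119277327-119296265) and *Ybx2*, the Y-box genes whose products coat stored mRNAs, showed no difference that could be told from the spread. *Ybx1* had 38.5 and 49.5 FPKM in control and 44.8 and 53.7 FPKM in *Eef1g*-cKO, and *Ybx2* had 60.9 and 49.4 FPKM in control and 80.0 and 53.3 FPKM in *Eef1g*-cKO. For each gene the groups overlapped. The log2 fold changes were 0.17 for *Ybx1* (95% interval -0.44 to 0.78, limma adjusted p = 0.677) and 0.25 for *Ybx2* (95% interval -0.44 to 0.93, limma adjusted p = 0.576), and the upper bounds leave room for increases approaching those of *Dazl*. Read numbers were the lowest of the group, 22 and 48 for *Ybx1* and 28 and 34 for *Ybx2* in *Eef1g*-cKO.

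*Ybx2* over *Ybx1* varied more between replicates than between genotypes, at 1.58 and 0.999 in control libraries against 1.78 and 0.992 in *Eef1g*-cKO libraries (change in log2 ratio 0.08, exact permutation test, two-sided, p = 1.00). *Ybx1* is the member most exposed to copies, with 70.8% of its coding windows found at 10 other loci, whereas none of the coding windows of *Ybx2*, *Dazl*, *Cpeb1*, *Celf1* or *Elavl1* was found elsewhere. The third Y-box gene, *Ybx3*, had 11.9 and 20.2 FPKM in control and 40.8 and 32.9 FPKM in *Eef1g*-cKO. With 17 and 25 reads in *Eef1g*-cKO, its log2 fold change of 1.19 met only the rule of unadjusted p and fold (limma adjusted p = 0.0802).

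*Celf1* (chr2:90940259-91019497), which encodes a regulator of mRNA decay and splicing, had the lowest FPKM of the group. It had 22.1 and 24.9 FPKM in control and 29.2 and 25.5 FPKM in *Eef1g*-cKO. The *Eef1g*-cKO values lay above the control values by a margin smaller than the counting error of a single *Eef1g*-cKO library, whose 95% limits ran from 21.8 to 38.2 FPKM in replicate 1. The log2 fold change was 0.21 (standard error 0.25, 95% interval -0.42 to 0.84, limma adjusted p = 0.605).

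**Figure D3:**
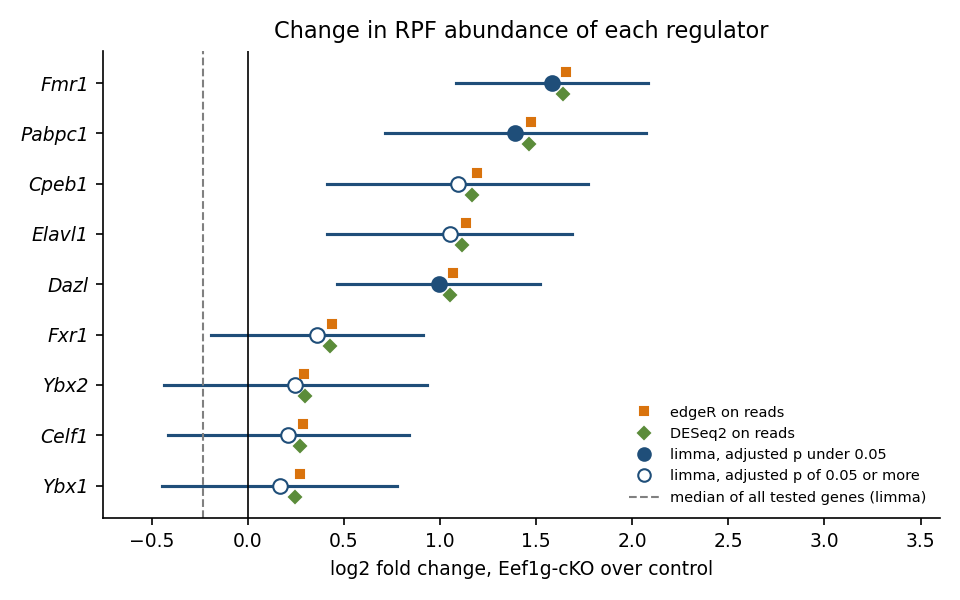
Log2 fold change of each regulator, *Eef1g*-cKO over control, by limma on log2(FPKM + 1) with 95% intervals (filled circles, adjusted p under 0.05), and by edgeR (squares) and DESeq2 (diamonds) on reads. In the limma fit 5 members had changes from 0.99 to 1.58 and 4 had changes from 0.17 to 0.36. With the coding GC trend removed these ranges did not stay apart, since *Ybx2* (0.66) exceeded *Dazl* (0.55). The dashed line marks the median of all tested genes at -0.23.

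Together the 9 genes took 2908 and 3027 reads per 1000000 in control and 5994 and 6003 in *Eef1g*-cKO, with a ratio of means of 2.02. That sum rests mainly on *Dazl* and *Fmr1*, which made up 60.5% and 62.0% of it in control and 69.3% and 67.5% in *Eef1g*-cKO, with *Dazl* alone at 42.4% to 47.4%. The other 7 genes made up the rest.

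In order of mean FPKM, control libraries had *Dazl* (451), *Fxr1* (138), *Fmr1* (109), *Pabpc1* (58.4), *Ybx2* (55.1), *Ybx1* (44.0), *Elavl1* (34.3), *Cpeb1* (28.6) and *Celf1* (23.5). The ranges of neighbours overlapped from *Pabpc1* downward and not above it. *Eef1g*-cKO libraries had *Dazl* (896), *Fmr1* (329), *Fxr1* (177), *Pabpc1* (154), *Elavl1* (71.3), *Ybx2* (66.6), *Cpeb1* (60.9), *Ybx1* (49.3) and *Celf1* (27.3) FPKM, where *Fxr1* overlapped *Pabpc1*, *Elavl1* overlapped *Ybx2*, and *Ybx2* overlapped *Cpeb1*. Even *Celf1* exceeded 70.2% of tested genes in control, and *Dazl* exceeded 98.8%.

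These levels divide by the deposited gene length, which includes untranslated parts where few footprints fall. That length was 1.14 times the coding length for *Fxr1* and 2.33 times for *Fmr1*, but 5.18 times for *Celf1* and 6.17 times for *Elavl1*. Per kilobase of coding sequence per 1000000 reads, an alternative chosen after seeing the data, *Fmr1* in control had a mean of 255 and *Fxr1* 158, the reverse of their order by FPKM. *Elavl1* moved from the seventh to the third place in control (211), and *Celf1* from the last to the fifth (122). *Dazl* stayed first in both groups, at 1494 in control and 2969 in *Eef1g*-cKO. Comparisons between genotypes keep the length of each gene fixed and are not touched by this choice, apart from the effect of adding 1 to each FPKM.

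Among relatives and partners of the regulators, 112 genes were listed, 104 were in the table and 97 were tested. By limma adjusted p, 3 increased (3.09%) and 6 decreased (6.19%), shares near those of all tested genes, and their median log2 fold change was 0.01. By unadjusted p and fold, 8 of the 97 increased and 8 decreased, where 7.32% of all tested genes increased and 16.3% decreased. Family by family, 1 of 5 tested DAZ and PUF genes increased, and no tested gene of the CELF (3), Y-box (1), fragile X (4), PABP (6) or ELAV (2) families or of cytoplasmic polyadenylation (11) passed the adjusted p. In deadenylation 1 of 17 decreased, in mRNP storage and decapping 1 of 19 increased, and among other mRNA-binding regulators 1 of 29 increased and 5 decreased.

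The 3 relatives that increased had limma adjusted p values just under 0.05. *Boll*, the DAZ-family relative of *Dazl*, had 45.2 and 66.0 FPKM in control and 135 and 121 FPKM in *Eef1g*-cKO (log2 fold change 1.21, standard error 0.25, limma adjusted p = 0.0482). Its *Eef1g*-cKO values came from 38 and 62 reads. *Atxn2l*, a stress granule component, had 86.0 and 95.6 FPKM in control and 165 and 199 FPKM in *Eef1g*-cKO (log2 fold change 0.99, limma adjusted p = 0.0482). *Adad1*, which encodes a testis RNA-binding protein, had 29.0 and 29.7 FPKM in control and 61.1 and 58.4 FPKM in *Eef1g*-cKO (log2 fold change 1.00, limma adjusted p = 0.0498).

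The 6 relatives that decreased were *Dnd1*, *Lin28a*, *Msi1*, *Khdrbs3*, *Btg2* and *Ptbp1*. *Dnd1*, a germ-cell RNA-binding factor of early germ cells, had 46.1 and 75.2 FPKM in control and 6.08 and 6.67 FPKM in *Eef1g*-cKO (limma adjusted p = 0.0225). *Msi1*, a translational repressor, had 58.8 and 77.3 FPKM in control and 5.76 and 4.74 FPKM in *Eef1g*-cKO (limma adjusted p = 0.0212). *Lin28a*, which is also on the list of spermatogonial markers given above, had 165 and 95 reads in the control libraries against 0 and 3 reads in the *Eef1g*-cKO libraries (limma adjusted p = 0.0379). These genes, with *Khdrbs3* and *Btg2*, had 0 to 4 reads in each *Eef1g*-cKO library, so the size of their decrease is poorly known. *Ptbp1*, with 19 and 40 reads there, had 59.7 and 63.2 FPKM in control and 27.3 and 31.5 FPKM in *Eef1g*-cKO (log2 fold change -1.04, limma adjusted p = 0.0497).

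**Figure D4:**
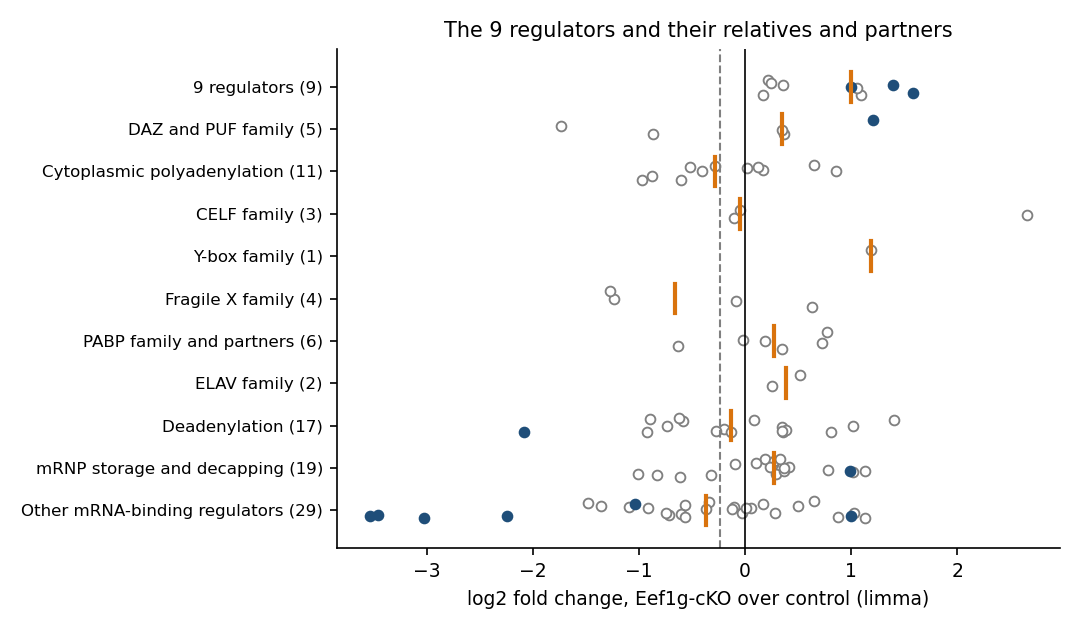
Log2 fold change (limma, *Eef1g*-cKO over control) of the 9 regulators and of the tested genes of 10 groups of relatives and partners, with the number tested in brackets; filled circles have an adjusted p under 0.05, orange bars are group medians and the dashed line is the median of all tested genes. The regulators have a median of 0.99 and all relatives together 0.01, with decreases past the threshold in deadenylation and among other mRNA-binding regulators.

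Some family members met only the rule of unadjusted p and fold. *Celf3*, a relative of *Celf1*, had 0.356 and 1.70 FPKM in control and 26.3 and 4.32 FPKM in *Eef1g*-cKO, from 3, 8, 20 and 6 reads (limma adjusted p = 0.107). *Nanos1*, which encodes a partner of PUF proteins, had 2.26 and 6.25 FPKM in control and 1.14 and 0 FPKM in *Eef1g*-cKO, the latter from 1 and 0 reads (limma adjusted p = 0.151). Family members without a call are given by their values. *Cpeb2* had a log2 fold change of 0.02 and *Cpeb4* of 0.85, *Celf2* had -0.10, *Elavl2* 0.51 and *Pabpc4* -0.64 on the same scale. The PABPC1 partners *Paip1*, which stimulates translation, and *Paip2*, which inhibits it, had 0.78 (limma adjusted p = 0.123) and 0.19 (limma adjusted p = 0.607).

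A few mRNAs known as targets of the regulators were in the table. Of these, *Sycp3* and *Sycp1* are also on the list of leptotene/zygotene markers given above, and *Prm2* is on that of pachytene and spermatid markers. *Sycp3*, a synaptonemal complex gene whose mRNA is bound by DAZL and CPEB1, had 811 and 716 FPKM in control and 2217 and 1778 FPKM in *Eef1g*-cKO (log2 fold change 1.38, standard error 0.25, limma adjusted p = 0.0389). *Ddx4*, the germ-cell helicase gene bound by DAZL, had 206 and 270 FPKM in control and 472 and 467 FPKM in *Eef1g*-cKO (log2 fold change 0.99, limma adjusted p = 0.0529). *Tex19.1*, another DAZL target, went the other way, with 157 and 204 FPKM in control and 79.6 and 73.3 FPKM in *Eef1g*-cKO (log2 fold change -1.22, limma adjusted p = 0.0383). *Sycp1*, a CPEB1 target, had 233 and 134 FPKM in control and 304 and 307 FPKM in *Eef1g*-cKO (log2 fold change 0.79, limma adjusted p = 0.146). *Prm2*, a YBX2 target of spermatids, was seen in only 1 control library.

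By closeness of centred log2(FPKM + 1) values over the 4 libraries, among 7080 genes whose mean reached 5 FPKM, the genes most like *Fmr1* were *Lepre1* (distance 0.0911), *Iqcb1* (0.0938) and *Tmem9b* (0.0978). With only 4 libraries in 2 groups, such a likeness follows mostly from the size of the change. No member decreased, so no such genes are given for a decrease.

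Base composition of the coding sequence went with the change across genes. Over 9773 tested genes with a coding sequence, Spearman's rho with the log2 fold change was -0.287 for the GC content of the coding sequence and -0.302 for the share of codons ending in G or C, as a description across genes that share 4 libraries of unequal depth. *Fmr1* and *Dazl* lie at the AT-rich end with changes of 1.58 and 0.99, and *Fxr1*, the most AT-rich of the 9 at the last codon position, had 0.36. *Pabpc1* (46.2%), *Cpeb1* (52.0%) and *Elavl1* (57.1%) reached changes of 1.05 to 1.39, while *Ybx1* (53.1%) and *Celf1* (53.2%), with a similar share of codons ending in G or C, had 0.17 and 0.21. With the trend on coding GC content removed within each library, *Fmr1* had 1.12 (limma adjusted p = 0.0299) and *Pabpc1* 1.22 (limma adjusted p = 0.0464). Over the alternatives that kept all 4 libraries, limma adjusted p ran from 0.0105 to 0.0707 for *Fmr1* and from 0.0261 to 0.101 for *Pabpc1*. DESeq2 on reads gave an adjusted p of 1.45e-10 for *Fmr1* and 1.35e-04 for *Pabpc1*. The median of the members with the trend removed was 0.66, the value of *Ybx2*, which exceeded *Dazl* (0.55).

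**Figure D5:**
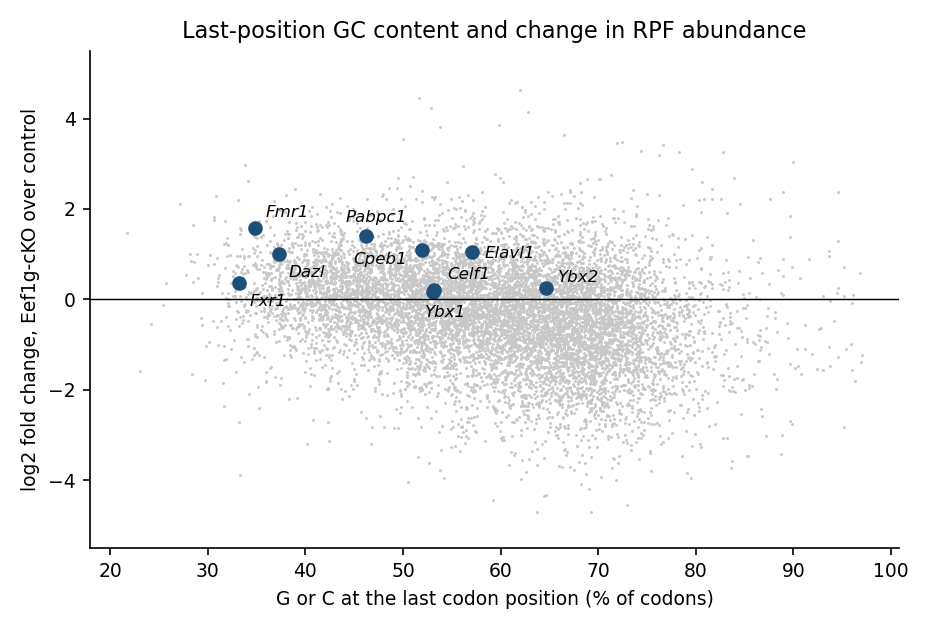
Share of codons ending in G or C (horizontal, % of codons) against the log2 fold change, *Eef1g*-cKO over control (vertical), for 9773 tested genes in grey and the 9 regulators in blue. *Fmr1*, *Dazl* and *Fxr1* lie between 33.2% and 37.2%, below the median of 60.2%, and only *Ybx2* lies above that median.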

How the data were processed

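RPFs of 2 control and 2 *Eef1g*-cKO samples were given in a table that the authors deposited. Its FPKM values are, by the authors' computation, read counts over gene length in kilobases and over library totals in units of 1000000 reads. The authors' normalized counts, a signal made by dividing each count by a size factor, were whole multiples of a step for 100% of values (tolerance 0.05 of a step), which returned whole reads. The authors' own fold changes and p-values stand in the same table and were not used. The methods give adapter trimming, quality filtering, alignment and RiboMiner; the submitters' processing notes list cutadapt, Bowtie and STAR without roles; counter, annotation and strand setting are not given in the sources used here.

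Log2(FPKM + 1) of genes whose mean reached 1 FPKM was tested with limma 3.58.1 (R 4.3.3, trended prior, no covariate, Benjamini-Hochberg adjustment over all 10475 genes). Calls were made at an adjusted p under 0.05, or at an unadjusted p under 0.05 with an absolute log2 fold change above 1, the threshold in the text of the paper. edgeR 4.0.16 and DESeq2 1.42.0 on the recovered reads were alternatives, beside other pseudocounts, filters, scalings, prior, replicate block and omission of each library. Ratios were compared by exact permutation over libraries. Coding sequences were the GENCODE M21 transcripts of GRCm38; 93.3% of genes had one. Copies elsewhere were exact 28-base matches in the RefSeq GRCm38.p6 genome. The fits were run on simulated data that gave all libraries the same dispersion. How they behave when the groups differ in noise was not tested.

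The members and all lists were chosen with earlier results of these data known. Named genes are the 9 members, listed relatives called by either rule or of the same families, background targets, markers, *Eef1g*, and the 3 genes most like the member that rose most. Replicates of a group correlated at r = 0.930 in control and 0.900 in *Eef1g*-cKO and differed by more than counting noise (chi-square per degree of freedom 13.2 and 1.96). Python 3.11.15 with pandas 2.3.3, scipy 1.17.1 and matplotlib 3.10.9 was used.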

Additional observations from a re-analysis of the deposited data

How the results depend on the processing

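The number of members that increased by adjusted p, 3 in the fit reported, was 0 with a pseudocount of 0.1, 1 without the filter on low genes, 5 with a minimum mean of 5 FPKM, 5 with centred libraries, 0 without the trend of the prior variance, and 5 each by edgeR and DESeq2. It ranged from 0 to 2 over the fits that each left out 1 library, at 0 without control replicate 1 or without control replicate 2, 2 without *Eef1g*-cKO replicate 1 (*Fmr1* and *Pabpc1*) and 1 without *Eef1g*-cKO replicate 2 (*Fmr1*), where the lone library is assumed to vary like the other group. By unadjusted p and fold it was 4, with 2 at a pseudocount of 5 and a range of 2 (without control replicate 1) to 5 over the left-out libraries. The number by that rule was 5 with centred libraries, 5 each by edgeR and DESeq2, and 3 with the coding GC trend removed. With that trend removed, 2 members increased by limma adjusted p. No member decreased by either rule under any of these alternatives. The median log2 fold change of the members, 0.99, was 1.21 with centred libraries and 0.66 with the coding GC trend removed, and 0.81 to 1.10 over the left-out libraries. The sign turned for *Fxr1* with the coding GC trend removed (-0.087), and over the left-out libraries for *Ybx1* (-0.011 to 0.34), *Ybx2* (-0.041 to 0.54), the ratio of *Ybx2* to *Ybx1* (-0.33 to 0.50) and the ratio of *Dazl* to *Cpeb1* (-0.28 to 0.077); the cause was not tested. Same-numbered libraries did not deviate together (r = -0.01 across genes). With a replicate block 3 members increased by limma adjusted p, *Fmr1* (0.0105), *Pabpc1* (0.0261) and *Cpeb1* (0.0465), and *Dazl* (0.0590) did not. Depth limits *Ybx1*, *Ybx2*, *Cpeb1* and *Celf1* the most, with 22 to 83 reads in each *Eef1g*-cKO library.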
